A study of Mustela putorius furo with 8 samples.

Results

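CF cluster 3 was the group of cells that carried cluster number 3 among the CFTR knockout (CF) cells in the authors' deposited cell table. It held 673 of the 11345 retained CF cells, out of 32945 retained cells of both genotypes. The cells came from polarized pancreatic ductal epithelia (PDE), which were primary duct cells of 1 to 3 day old newborn ferrets, taken through 10 passages, seeded on coated permeable supports and kept at an air-liquid interface (ALI). The CF cultures had the genotype CFTR KO/KO and the WT cultures were WT. Each genotype gave 1 library on each of days 2, 5, 7 and 9 at ALI, made from pooled cells of several donor animals that cannot be separated here. The titles gave these days, whereas the general culture protocol named a longer time at ALI. The clusters of WT and CF cells had been drawn separately, so no WT cell could belong to CF cluster 3. RNA was counted as unique molecular identifiers (UMIs), 1 for each captured molecule, in 3' droplet libraries.

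Osteopontin (SPP1) is a secreted phosphoprotein that binds integrins and CD44, and in the pancreas it is known from the duct epithelium. SPARC binds collagen and is one of the matricellular proteins, which sit in the matrix and act on cells more than they bear load. Centroacinar cells lie at the junction of acinus and terminal duct, and are known as a possible progenitor pool of the exocrine pancreas. Versican (VCAN) is a large matrix proteoglycan, CTHRC1 a secreted glycoprotein known from matrix remodelling, RSPO2 an R-spondin that strengthens WNT signalling, PAPPA a protease that cleaves IGF-binding proteins, and clusterin (CLU) a secreted chaperone.

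Cluster 3 was a late population. None of the 4499 CF cells of day 2 belonged to it, which allows a share of up to 0.0667% if 3 counts of the total are taken as the limit (the Clopper-Pearson upper bound is 0.082%). It held 17 of 2750 cells (0.618%, 95% Clopper-Pearson interval 0.361 to 0.988) at day 5, 135 of 1607 cells (8.4%, 7.09 to 9.87) at day 7 and 521 of 2489 cells (20.9%, 19.3 to 22.6) at day 9. The intervals of the 3 later days did not overlap, but all intervals and limits here cover counting error only, and with 1 library for each day a day cannot be told apart from its library. Among cells with at least 3000 UMIs the share was 11.3% at day 7 and 23% at day 9. All cluster 3 cells carried the deposited class name centroacinar, and they were 12.3% (10.4 to 14.4) of the 1096 centroacinar CF cells at day 7 and 26.6% (24.7 to 28.6) of 1957 at day 9.

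**Figure D1:**
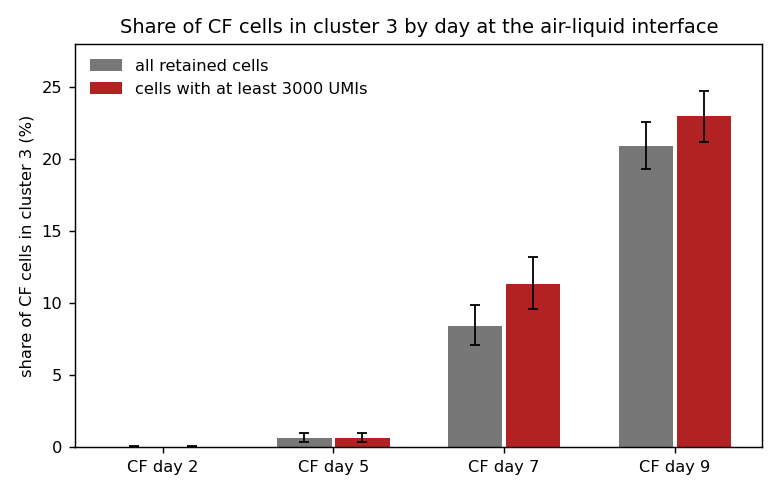
Share of CF cells that belonged to cluster 3 (percent, vertical axis) on days 2, 5, 7 and 9 at ALI, for all retained cells (grey) and for cells with at least 3000 UMIs (red). Bars are shares in 1 library per day and whiskers the 95% Clopper-Pearson interval; the grey bars stand at 0, 0.618, 8.4 and 20.9%.

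The cells were deeply covered. A cluster 3 cell held a median of 18486 UMIs at day 9 and 26833 at day 7, against 20792 and 22960 in the other CF cells of the same libraries. The sums over the cluster were 10009638 UMIs at day 9 and 3645650 at day 7, and over the other 1968 and 1472 cells 39997253 and 31087663. Only 1 cluster 3 cell had fewer than 3000 UMIs, whereas 223 other cells at day 9 and 411 at day 7 did. The median mitochondrial share was 4.57% in cluster 3 and 6.75% in the other cells at day 9, and 5.54% and 5.77% at day 7. The part of these depth differences in the results below was not tested, other than by the thinned values given beside them. Barcodes found in more than 1 library made up 6 of the 673 cells (0.892%), close to 297 of all 32945 (0.902%).

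The targeted gene was read in all libraries: CFTR stood at 2.5, 8.69, 11.1 and 11.4 UMIs per 1e6 UMIs of the library (CPM) in CF and at 6.57, 16.9, 15.9 and 29.5 in WT at days 2, 5, 7 and 9. A 3' library reads the end of the transcript, so these CFTR levels do not check the knockout. PDX1, the pancreatic homeodomain factor that the study follows, was at 3.37 to 5.04 CPM in the CF libraries and at 0 to 0.0121 CPM in the WT libraries, where 1 UMI was found in all. Within CF cells PDX1 was at 3.9 CPM (2.77 to 5.33) in cluster 3 and 4.58 (3.94 to 5.29) in the other cells at day 9. At day 7 it was at 3.02 CPM (1.51 to 5.4, 11 UMIs) and 5.27 (4.5 to 6.15). CFTR was at 6.19 and 12.7 CPM at day 9. At day 7 CFTR was at 9.87 in the cluster and 11.3 outside it.

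For the comparisons, UMIs were summed over the cells of cluster 3 and over the comparison cells within each library and scaled to CPM. A difference is the log2 of CPM plus 1 in cluster 3 minus the same in the comparison cells, which understates the change of low genes. Genes with a mean of both CPM values of at least 10 were kept, and a gene was called when the 2 values were at least 2-fold apart. A kept gene with 1 value below 10 CPM passed only through the other value, so its direction was set by the filter. With 1 library on each day no p-value can be given. Because the clusters had been drawn from these same genes, all differences between cluster 3 and other cells are descriptions and not tests.

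In each library 1 cell of cluster 11, the cluster most like cluster 3, stood apart, and it was met after the values had been seen. At day 9 this cell of 42120 UMIs held 45 of the library's 47 UMIs of THY1, a fibroblast surface protein, 41 of 42 of COL3A1, 17 of 17 of PDGFRB and 405 of 467 of ACTA2, smooth muscle actin. At day 7 a cell of 57991 UMIs held 90 of 90, 75 of 75, 8 of 8 and 766 of 831 UMIs of these genes. Neither cell held a UMI of KRT5, and they held 1 and 0 of KRT7. Values without these 2 cells are given below for the collagen, contractile and fibroblast genes and for the comparisons with the nearest clusters.

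The 7 marker genes of cluster 3 were higher than in the other CF cells at both days. SPP1 was at 4342 CPM (95% Poisson interval 4301 to 4383) in cluster 3 and 1339 (1327 to 1350) outside it at day 9, a ratio of 3.24 (3.2 to 3.28), and at 2792 and 882 CPM at day 7, a ratio of 3.17. SPARC was at 2083 and 632 CPM at day 9, a ratio of 3.3 (3.24 to 3.36), and at 1659 and 685 at day 7, a ratio of 2.42. CLU was the most abundant of the set, at 13470 and 4566 CPM at day 9 and 12018 and 3563 at day 7, ratios of 2.95 and 3.37. The day 9 library held the higher SPP1 and SPARC levels on both sides of the comparison, except for SPARC outside the cluster.

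The other markers were less abundant. RSPO2 rested on 195 UMIs in cluster 3 and 105 outside it at day 9, which gave 19.5 CPM (16.8 to 22.4) and 2.63 CPM, a ratio of 7.42 (5.82 to 9.5). At day 7 it rested on 47 and 89 UMIs, 12.9 and 2.86 CPM, a ratio of 4.5 (3.09 to 6.48). At day 7 RSPO2 did not pass the filter, and at day 9 it passed through its level in cluster 3. VCAN was at 47.7 and 9.6 CPM at day 9, a ratio of 4.96 (4.33 to 5.69), and at 34.8 and 16.1 at day 7, a ratio of 2.16 (1.76 to 2.63). CTHRC1 was at 40.1 and 10.1 CPM at day 9, a ratio of 3.99 (3.46 to 4.59), and at 40.3 and 9.23 at day 7, a ratio of 4.37. VCAN at day 9 and CTHRC1 at day 7 also passed the filter only through cluster 3 and so had to be higher there.

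PAPPA depended most on how cells were weighted. Its level was 138 CPM in cluster 3 and 53.3 outside it at day 9, a ratio of 2.59 (2.41 to 2.77), and 154 and 40.1 at day 7, a ratio of 3.83. The log2 difference of 1.35 at day 9 became 0.28 when each cell had equal weight and 0.43 when each cell was thinned to 3000 UMIs, and was 0.94 against the other cells of the class centroacinar. At day 9 PAPPA stood at rank 4 of 11 clusters of at least 50 cells, below cluster 23 with 659 CPM, cluster 27 with 480 and cluster 11 with 217. Over both days clusters 23 and 27 had medians of 3506 and 4601 UMIs in a cell and mitochondrial shares of 11.7 and 17.3%, and the part of these in their ranks was not tested.

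The size of these differences was set in part by the clusters nearest to cluster 3 among the comparison cells. When clusters 11, 5 and 16 were left out of them, the day 9 differences were 3.59 for SPP1, 3.39 for SPARC and 4.53 for CTHRC1, in place of 1.70, 1.72 and 1.89.

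Cluster 11 exceeded cluster 3 in several of these genes. At day 9 SPP1 was at 6213 CPM in cluster 11, 4342 in cluster 3 and 1909 in cluster 27, and the other clusters ranged down to 14.7 CPM in cluster 18. SPARC was at 2664 CPM in cluster 11, 2083 (2055 to 2112) in cluster 3 and 2024 (1911 to 2142) in cluster 23, and the last 2 did not differ beyond their intervals. CLU was at 14763 CPM in cluster 11, 13470 in cluster 3 and 11350 in cluster 23. CTHRC1 was at 58.3 CPM in cluster 11, 40.1 in cluster 3 and 11.9 in cluster 23.

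RSPO2 and VCAN had another order. RSPO2 was highest in cluster 3, with 19.5 CPM, and stood at 10.4 (6.61 to 15.6) in cluster 16 and 6.27 (4.44 to 8.61) in cluster 11, whereas the 16.8 CPM of cluster 13 rested on 2 UMIs (2.04 to 60.7). At day 7 the RSPO2 intervals of cluster 3 (9.47 to 17.1) and cluster 11 (5.97 to 12) overlapped. VCAN was highest at 168 CPM in cluster 27, whose low depth and high mitochondrial share are given above. Next came cluster 3 with 47.7 CPM, cluster 14 with 24.2 and cluster 11 with 22.6. At day 7 VCAN was at 67.8 CPM in cluster 27, 62.1 in cluster 11, 35 in cluster 16 and 34.8 in cluster 3.

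**Figure D2:**
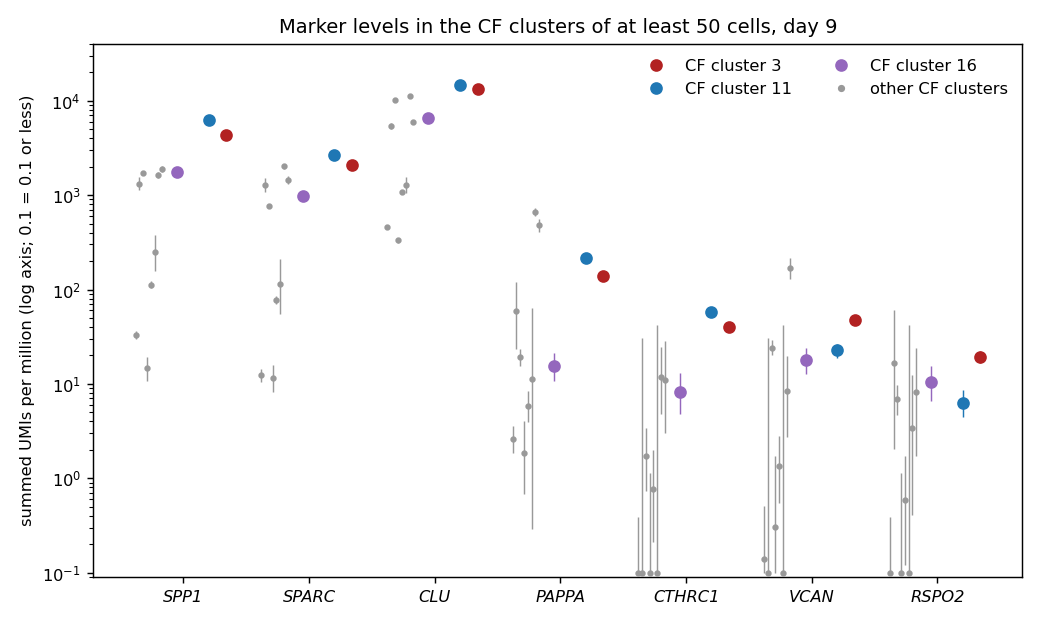
Levels of the 7 marker genes (horizontal axis) in CF clusters of at least 50 cells at day 9, in CPM (log axis, 0.1 stands for 0.1 or less), with 95% Poisson intervals. Cluster 3 (red) lies below cluster 11 (blue) in SPP1, SPARC, CLU, PAPPA and CTHRC1 and above it in VCAN and RSPO2; cluster 16 is purple and the other clusters grey.

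Most cells of the cluster carried the leading markers. After each cell had been thinned to 3000 UMIs, SPP1 was seen in 93.3% of cluster 3 cells and 41.8% of the other CF cells at day 9, and in 6.77% of cluster 7. SPARC was seen in 95.2%, 41.8% and 3.81% of the same cells. KRT5, the basal-type keratin, was seen in 82.7% and 38.9%, and MUC1, the apical mucin, in 2.31% and 48.7%. The nearest clusters shared these traits. In clusters 11, 16 and 5 SPP1 was seen in 96.6, 74.6 and 65.8% of cells and SPARC in 98.9, 80.5 and 81.6%. KRT5 was seen there in 75.6, 74.6 and 100%, and MUC1 in 5.26, 5.93 and 0%. RSPO2 was seen in 6.54% and 0.63% after thinning and in 27.1% and 4.73% before it, so most cluster 3 cells had no RSPO2 UMI. The spread between cells was wide for SPP1, with a median of 31.5 UMIs per 10000 UMIs of the cell and 2.46 to 127 between the 5th and 95th percentile at day 9, over cells of at least 3000 UMIs. It was narrower for SPARC, at 19.7 (6.52 to 39.9), and for CLU, at 129 (58 to 234).

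At day 5 the 17 cells held 314108 UMIs in all. SPP1, SPARC, CLU, PAPPA and CTHRC1 were at least 2-fold higher in them than in the other CF cells. PAPPA and CTHRC1 passed the filter only through these 17 cells and so had to be higher. These are the cluster's own markers and no share over all genes is given for day 5, so the values are a description. SPP1 was at 1044 CPM (934 to 1163) in them and 37.3 in the other CF cells of that day. SPARC was at 1604 and 88.8 CPM, CLU at 9214 and 1130, PAPPA at 127 and 3.67 and CTHRC1 at 115 and 3.02. RSPO2 and VCAN, also more than 2-fold higher, did not pass the filter and rested on 3 UMIs each in these cells. They were at 9.55 CPM (1.97 to 27.9) against 1.12 and 2.29, and the interval for VCAN holds the level of the other cells. KRT5 was at 1245 and 545 CPM, and MUC1 at 9.55 and 697.

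Over all genes, 7780 passed the filter at day 9, of which 372 (4.78%) were at least 2-fold higher in cluster 3 than in the other CF cells and 399 (5.13%) at least 2-fold lower. At day 7, 184 of 7862 (2.34%) were higher and 340 (4.32%) lower. The split depended on scaling, since TMM factors gave 179 higher and 575 lower at day 9 and 123 and 408 at day 7. The median difference of all genes was 0.19 at day 9 and 0.08 at day 7, and TMM scaling moved it by -0.25 and -0.11. Of 7657 genes past the filter at both days, 146 (1.91%) were higher and 282 (3.68%) lower on both. Differences described below are on the CPM scale. A list's median is to be read beside 0.19 at day 9 and 0.08 at day 7. A list's counts are to be read beside the shares of all genes called, given above.

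**Figure D3:**
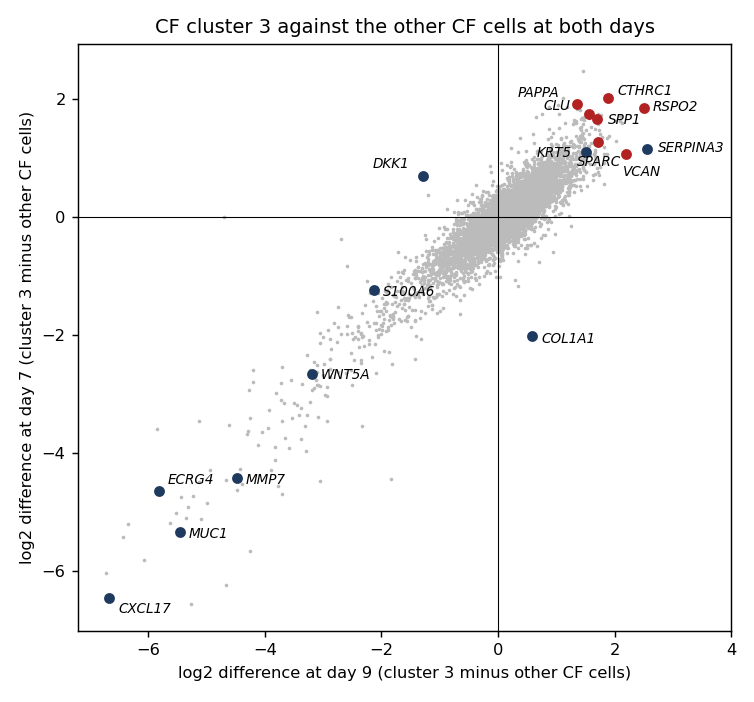
Log2 difference between cluster 3 and the other CF cells at day 9 (horizontal axis) and at day 7 (vertical axis); each point is a gene past the filter at either day, with the 7 markers in red and other named genes in dark blue. The comparisons share no library but share the definition of the cluster; COL1A1 (0.59 and -2.01) and DKK1 (-1.28 and 0.70) are among the 1313 of 7657 genes past the filter at both days (17.1%) with opposite signs.

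Beside the markers, several genes with a known role were among the 15 furthest above the other CF cells at day 9. SERPINA3, a protease inhibitor of the acute phase, was at 36.4 and 5.4 CPM, a log2 difference of 2.55, and of 1.16 at day 7. SLITRK6, a neuronal-type membrane protein, was at 49.9 and 11 CPM, with differences of 2.09 and 1.63. MN1, a transcriptional coregulator, was at 20 and 4.15 CPM, with 2.03 and 1.29. SERPINA3 and MN1 passed the filter only through their level in cluster 3 and so had to be higher. CRYAB, a small heat shock protein, was at 188 and 52.6 CPM, with 1.82 at day 9 and 0.56 at day 7. SERPINA3 and SLITRK6 stood at rank 1 of 11 clusters in cluster 3 at day 9 and at rank 3 of 13 at day 7. Cluster 11 was listed above cluster 3 in both at day 7, but the order cannot be read. Without the cell with fibroblast markers, the intervals of cluster 11 (16.1 to 25.3 and 52.2 to 67.9 CPM) held the cluster 3 levels of 16.2 and 57.3.

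Several of the 15 genes furthest below encode secreted or apical proteins. CXCL17, a mucosal chemokine, was at 2.2 CPM in cluster 3 and 324 outside it at day 9, a log2 difference of -6.67, and of -6.46 at day 7. SPINK1, the trypsin inhibitor of pancreatic juice, was at 2.8 and 326 CPM, with -6.43 and -5.42. WFDC2, a secreted antiprotease, was at 3.2 and 338 CPM, with -6.34 and -5.20. ECRG4, a secreted peptide precursor, was at 57.7 and 3306 CPM, with -5.82 and -4.64. MUC1 was at 10.7 and 513 CPM, with -5.46 and -5.34, and cluster 11 had the same low level, 10.7 CPM at day 9 and 11.7 at day 7. The mucosal peptides TFF1 and TFF2 differed by -5.53 and -5.26 at day 9 and lactotransferrin (LTF) by -5.32. Cluster 11 shared these low levels at day 9, with CXCL17 at 1.98 CPM, WFDC2 at 2.97, ECRG4 at 34.3, TFF1 at 1.82 and LTF at 1.32. CXCL17, SPINK1, WFDC2, TFF1, TFF2 and LTF passed the filter only through the other cells.

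Of the 12 secretory and surface genes past the filter, 11 were at least 2-fold lower and none higher at day 9, with a median difference of -5.18. At day 7, 10 of 12 were lower, with a median of -5.07. MUC5AC, a gel-forming mucin, was at 0.699 and 57.2 CPM, and TFF3 at 2.9 and 97.9. Several of these genes, such as MUC5AC, TFF3, SPINK1 and WFDC2, passed the filter only through their level in the other cells and so had to be lower in cluster 3. Ion transport genes of duct cells were lower for 3 of 5 at day 9 and 3 of 6 at day 7. SCNN1A, a subunit of the epithelial sodium channel, was at 1.6 and 82.2 CPM, and also passed the filter only through the other cells. SLC12A2, the basolateral chloride importer, was at 45.1 and 177 CPM.

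List counts against the other CF cells leave out the 7 markers, some of which belong to a list. Over all genes 4.78% were higher and 5.13% lower at day 9, and 2.34% and 4.32% at day 7. A single called gene in a list is therefore not read as a result about the list. Beside SPP1 and SPARC, 2 matricellular genes passed the filter, of which 1 was higher at day 9 and none at day 7, with medians of 1.07 and 0.65. The angiogenic matricellular proteins CCN1 and CCN2 were at 653 and 2112 CPM in cluster 3 and 296 and 1057 outside it at day 9. Of 9 collagens, 4 were higher at day 9, with a median of 0.98, and 1 was higher and 1 lower at day 7. Without the cell with fibroblast markers, 6 of 9 were higher at day 9, and at day 7 2 of 7 were higher and none lower. COL18A1, a basement membrane collagen, was at 971 and 322 CPM, a difference of 1.59, and COL17A1, the hemidesmosome collagen of basal cells, at 452 and 224, a difference of 1.01. COL12A1 was at 72 and 32.8 CPM. The collagen chaperone SERPINH1 was at 212 and 92.3 CPM.

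COL1A1, the main fibrillar collagen, differed by 0.59 at day 9 (18.4 and 11.9 CPM) and by -2.01 at day 7 (4.39 and 20.6 CPM). Without the cell with fibroblast markers of each library the COL1A1 differences were 0.99 and -0.98, and at day 7 it no longer passed the filter. Of 10 fibroblast and stellate markers, only COL1A1 passed the filter at day 9 and 6 were at 0 in cluster 3, and the list summed to 21.1 CPM in cluster 3 and 23.4 outside it, or 12.7 outside it without the cell with fibroblast markers. At day 7 the sums were 6.31 in cluster 3 and 37.9 outside it, or 14.4 without that cell. Markers of immune, endothelial, endocrine, acinar and Schwann cells summed to at most 1.9 CPM for each list in cluster 3.

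Of 9 proteoglycan and hyaluronan genes other than VCAN, 3 were higher and none lower at each day, with medians of 0.78 and 0.55. GPC1, a cell surface glypican, was at 324 and 118 CPM at day 9, whereas biglycan (BGN) was at 344 and 414. Among the receptors of osteopontin, ITGB1 was at 1548 and 893 CPM at day 9, CD44 at 208 and 158 and ITGB5 at 103 and 39.4. ITGB5 was the only one of 6 at least 2-fold higher at day 9, and none of 5 was at day 7. ITGB4, the hemidesmosome integrin, was at 1093 and 530 CPM, the only called gene of 11 laminins and integrins at day 9. At day 7, 2 of 11 were higher and none lower.

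Contractile and mesenchymal genes were higher for 4 of 9 and lower for 1 of 9 at both days, with medians of 0.90 and 0.92. Without the cell with fibroblast markers, 4 of 8 were higher and none lower at day 7. Vimentin (VIM) was at 475 and 208 CPM, the myosin light chain MYL9 at 217 and 84.1 and tropomyosin TPM1 at 818 and 393. TAGLN, an actin-binding protein of smooth muscle, was at 841 and 528 CPM, a difference of 0.67, and fibronectin (FN1) at 531 and 406. S100A4 went the other way, at 0.2 and 28.4 CPM, and passed the filter only through the other cells. Of the 3 transcription factors of epithelial-mesenchymal transition past the filter, 2 were higher at day 9 and 1 at day 7. SNAI2, a repressor known from epithelial-mesenchymal transition, was at 133 and 41.4 CPM at day 9 and 128 and 58.8 at day 7. PRRX2 was at 67.5 and 22.7 CPM, and its difference of 1.53 at day 9 was 0.52 at day 7.

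Of the TGF-beta ligands, receptors and targets, 5 of 12 were higher and 1 lower at day 9, with a median of 0.60, and 2 of 11 were higher and 1 lower at day 7. The ligand TGFB1 was at 189 and 71.5 CPM at day 9 and 185 and 80.9 at day 7. The receptor TGFBR1 was at 132 and 57.4 CPM, whereas TGFBR2 differed by -0.49. The feedback inhibitors SMAD7 and PMEPA1 were at 206 and 1507 CPM in cluster 3 and 91.6 and 544 outside it. TGFBI, an extracellular target, was lower, at 7.99 and 35.2 CPM, and passed the filter only through the other cells.

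The WNT list did not move one way: other than RSPO2, 1 of 8 genes was higher and 2 lower at day 9, and 1 and 1 at day 7. CTNNB1 (beta-catenin) was at 422 and 210 CPM and the WNT inhibitor SFRP1 at 392 and 208. WNT5A, a ligand of non-canonical signalling, was at 5.09 and 54.8 CPM at day 9 and 5.21 and 38.2 at day 7. It passed the filter only through the other cells, and cluster 11 shared the low level, with 5.45 CPM at day 9. The R-spondin receptor LGR4 was at 84.4 and 84.3 CPM. AXIN2, a common target of canonical signalling, had no UMI in cluster 3 at day 9 and stood at 5.1 CPM outside it. It did not pass the filter. Its median over the clusters other than cluster 3 was 0.334 CPM, with cluster 19 at 12.8, so a low level was not particular to cluster 3. DKK1, a secreted WNT inhibitor, was lower at day 9, with 68.5 and 168 CPM, and higher at day 7, with 108 and 65.9. At day 9 the 473 cells of cluster 7 stood at 333 CPM and cluster 14 at 70.2, so the level outside cluster 3 rested in part on cluster 7, whose part in the change of sign was not tested.

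In the IGF axis, 3 of 6 genes other than PAPPA were higher and 1 lower at day 9, with a median of 0.75, and none was higher and 1 lower at day 7. The binding protein IGFBP3 was at 2139 and 649 CPM at day 9 and was seen in 92.3% and 44% of thinned cells. IGFBP2 was at 92.6 and 26.9 CPM and IGFBP7 at 3155 and 1483. The receptors IGF1R and INSR were at 106 and 4.9 CPM in cluster 3 and 123 and 28.9 outside it. INSR passed the filter only through the other cells.

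In the BMP list, 3 of 10 genes were higher and 1 lower at day 9, with a median of 0.48, and 1 and 1 at day 7. BMP2 was at 355 and 143 CPM, its target ID3 at 1492 and 713 and the activin antagonist FST at 356 and 113. BMP3 was lower, at 9.49 and 53.6 CPM, and passed the filter only through the other cells. Among matrix proteases, MMP7, a matrilysin of secretory epithelium, was at 27.5 and 634 CPM at day 9 and 7.68 and 186 at day 7. In cluster 3 a single cell held 67 of the 275 MMP7 UMIs at day 9.

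The class name centroacinar was set beside the study's own markers. Of 4 centroacinar markers past the filter at day 9, none was 2-fold higher and 2 were lower, with a median of -1.05, and at day 7 none of 3 was higher and 1 lower, with a median of 0.12. S100A6 was at 11841 and 51703 CPM, S100A4 as above, and KRT7 at 4802 and 3292. S100A4 passed the filter only through the other cells and so had to be lower. At day 9 S100A6 was at 88092 CPM in cluster 7, and its median over the clusters other than cluster 3 was 15631. PROM1 was at 0.1 and 9.68 CPM. Of 5 progenitor markers of the study 3 were lower and none higher at both days. TFF3 was among the lower ones, but it passed the filter only through the other cells and so had to be lower. Of 5 ductal markers 1, KRT5, was higher, at 767 and 271 CPM at day 9 and 1245 and 577 at day 7. KRT8, a simple-epithelium keratin, was at 659 and 1201 CPM. Of the 1968 other CF cells of day 9, 1436 also carried the class centroacinar. The comparison is thus mostly within the class and cannot check the class name. None of the class markers was 2-fold higher in cluster 3, and the group is called by its number here.

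Junction genes were mixed, with 1 of 15 higher and 3 lower at day 9 and a median of -0.21. P-cadherin (CDH3) was at 71 and 29.5 CPM and E-cadherin (CDH1) at 325 and 574. The tight junction genes OCLN and CLDN4 were at 24.5 and 116 CPM in cluster 3 and 77.2 and 264 outside it. Of 7 pancreatic progenitor factors 2 were higher at day 9 and 1 at day 7. SOX4 was at 1735 and 797 CPM and FOXA2, an endoderm factor, at 30.8 and 14.5. SOX9, at 3.3 and 14.0 CPM, did not pass the filter. At day 7 it was at 4.94 CPM in cluster 3, beside a median of 4.52 over the other clusters. SOX2 had no UMI in cluster 3 at day 9. Its absence is not particular to cluster 3, since over all days no CF cluster of at least 50 cells was above 1.08 CPM. Cell cycle, interferon and NF-kB lists had at most 1 called gene in either direction at each day.

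Among the remaining lists at day 9, collagen folding had 2 of 8 genes other than CTHRC1 higher and none lower, targets of YAP and TEAD 2 of 9 higher, matrix proteases and inhibitors 2 higher and 2 lower of 8, and heat shock and early response genes 1 higher and 1 lower of 9. HSPB1, a small heat shock protein, was at 2139 and 728 CPM, and F3, tissue factor, at 1409 and 633. Of 21 lists with at least 5 genes past the filter, the markers left out, 16 had a median above that of all genes, and the count was also 16 against the other centroacinar cells. The lists share members and were chosen with earlier results of these data known, so this tally depends on that choice.

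The 2-fold counts of several lists at day 9 were smaller with TMM scaling or against the other centroacinar cells. Collagens went from 4 of 9 higher to 2 with TMM scaling and 1 against the other centroacinar cells, contractile genes from 4 to 1 and 0, collagen folding other than CTHRC1 from 2 to 0 and 0, and targets of YAP and TEAD from 2 to 0 and 0. TGF-beta genes went from 5 of 12 to 3 and 3, IGF axis genes other than PAPPA from 3 of 6 to 2 and 2, WNT genes other than RSPO2 from 1 of 8 to 0 and 0, BMP genes from 3 of 10 to 2 and 2, and progenitor factors from 2 of 7 to 0 and 0. The single called genes of the matricellular list and of the laminins and integrins were 2-fold apart in neither alternative, and proteoglycan genes went from 3 of 9 to 2 and 2. Matrix proteases and inhibitors went from 2 higher and 2 lower to 0 and 3 with TMM scaling and 0 and 2 against the centroacinar cells, and junction genes from 1 and 3 to 0 and 4 and to 0 and 1. Secretory genes were lower for 12 of 13 with TMM scaling and for 11 of 12 against the other centroacinar cells.

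**Figure D4:**
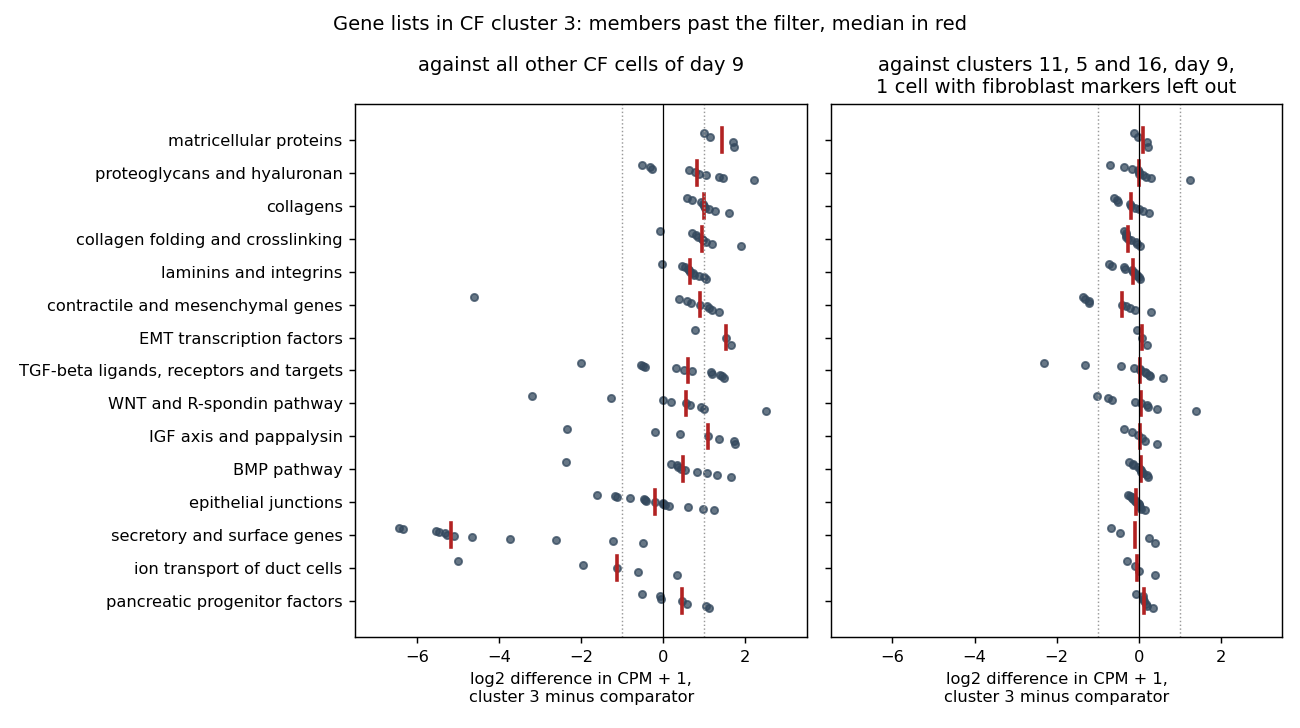
Log2 differences (CPM plus 1) of the genes past the filter in 15 gene lists at day 9, each point a gene and the red bar the list's median, with dotted lines at 2-fold and markers that belong to a list included. Against all other CF cells (left) the secretory genes lie to -6.43 while the medians of the matrix lists lie above 0; against clusters 11, 5 and 16, without the cell with fibroblast markers (right), the medians lie between -0.42 and 0.12.

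Cluster 3 was far closer to a few clusters than to the other CF cells as a whole. Over 8153 genes in 15 clusters its summed levels had a Pearson correlation of 0.983 with cluster 11, 0.979 with cluster 5 and 0.966 with cluster 16, followed by 0.958 with cluster 14. These are correlations across genes, which are not independent, and are given as a description. Against these 3 nearest clusters together, without the cell with fibroblast markers, 5 genes (0.0643%) were at least 2-fold higher and 33 (0.424%) lower at day 9. With that cell the counts were 5 of 7784 (0.0642%) and 37 (0.475%), and at day 7 they were 6 of 7817 (0.0768%) and 33 (0.422%), or 4 and 30 without it.

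The following values leave that cell out. The 5 genes higher than in the 3 nearest clusters at day 9 were RSPO2 (19.5 and 6.74 CPM), VCAN (47.7 and 19.6), APOE (16 and 6.08), ATP6V0D2 (126 and 57.1) and LOC101676773 (51.2 and 23.6). RSPO2 and APOE passed the filter only through their level in cluster 3. APOE is a lipid carrier and ATP6V0D2 a subunit of the vacuolar proton pump. At day 7 VCAN differed by -0.10, ATP6V0D2 by 0.75 and LOC101676773 by 1.56, and RSPO2 (12.9 and 6.41 CPM) and APOE (8.78 and 2.64) did not pass the filter. SPP1 differed from the nearest clusters by -0.11, SPARC by -0.01 and CTHRC1 by -0.06 at day 9. These values average unlike clusters, since the pool with that cell held 266 cells of cluster 11, 118 of cluster 16 and 38 of cluster 5. Over all days SPP1 was at 5968, 671 and 249 CPM in these clusters and 3863 in cluster 3. In SPARC and CTHRC1 cluster 3 also lay below cluster 11 and above clusters 16 and 5. The genes lowest against the nearest clusters were CSF2, a myeloid growth factor (6.89 and 55.8 CPM), LOC123392181 (4.7 and 28.2) and INHBA, an activin subunit (15.4 and 79.9). CSF2 and LOC123392181 passed the filter only through the nearest clusters. FN1, at 531 and 1322 CPM, was also lower. TAGLN, at 841 and 1940 CPM, was among the 4 of 9 contractile genes that were lower, a list with a median of -0.42. None of the 9 collagens was 2-fold apart, and their median was -0.19.

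Cluster 11 alone, a comparison added after the data had been seen, showed what separated both SPP1-rich clusters. At day 9, 64 of 7740 genes (0.827%) were at least 2-fold higher in cluster 3 and 93 (1.2%) lower, and at day 7, 75 of 7705 (0.973%) and 94 (1.22%). Without the cell with fibroblast markers the counts were 65 and 81 at day 9 and 73 and 80 at day 7, and the values that follow leave that cell out. INHBA was at 15.4 CPM in cluster 3 and 119 in cluster 11 at day 9 and at 4.94 and 85.4 at day 7, and an INHBA UMI was found in 16.1% and 61.9% of cells at day 9. TAGLN was at 841 and 2861 CPM at day 9 and 797 and 3227 at day 7. FN1 was at 531 and 1974 CPM at day 9, CALD1, an actin regulator, at 597 and 2054, and ANKRD1, a YAP target, at 193 and 815. N-cadherin (CDH2) was at 9.59 and 38.9 CPM, and the integrin ITGB3 at 63.6 and 198. CDH2 at day 9 and INHBA at day 7 passed the filter only through cluster 11 and so had to be lower in cluster 3.

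Collagens were lower in cluster 3 than in cluster 11 for 3 of 9 genes at day 9, with a median of -0.62, and for 6 of 9 at day 7, with a median of -1.21. COL5A2 was at 81.1 and 171 CPM at day 9 and COL12A1 at 72 and 150. COL1A1 was at 18.4 and 39.4 CPM at day 9 and 4.39 and 68.9 at day 7, when it passed the filter only through cluster 11. SPP1 itself was at 4342 and 6256 CPM at day 9 and 2792 and 5873 at day 7, and SPARC at 2083 and 2650, and 1659 and 3126. ACTA2 was at 2.4 and 3.33 CPM at day 9 once the cell was left out, and in 1 of 135 cluster 3 cells at day 7 (0.741%) against 14 of 127 cells of cluster 11 (11%).

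Other genes were higher in cluster 3 than in cluster 11 on both days. AQP3, the water and glycerol channel, was at 47.8 and 7.81 CPM at day 9 and 52.7 and 6.94 at day 7, and was found in 38.2% and 10.2% of cells at day 9 and in 47.4% and 15% at day 7. Against all other CF cells AQP3 was lower in cluster 3, at 47.8 and 172 CPM. ZBTB16, a zinc finger repressor, was at 60 and 11.1 CPM at day 9 and 40.6 and 5.14 at day 7. The receptor tyrosine kinase ROS1 was at 23.2 and 5.82 CPM at day 9 and 20.3 and 2.83 at day 7, and LY6D, a surface protein of stratified epithelium, at 398 and 119, and 151 and 32.7. RSPO2 was at 19.5 and 6.32 CPM at day 9, while at day 7 the values were 12.9 and 8.74. On both days AQP3, ROS1 and RSPO2 passed the filter only through their level in cluster 3, as did ZBTB16 at day 7. Their direction was thus set by the filter. VCAN was at 47.7 and 20.1 CPM at day 9 and 34.8 and 58.4 at day 7, so its order against cluster 11 was not the same on both days.

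Within cluster 3 few genes were called between the days. The cluster groups cells of like expression, so a small count was to be met by construction and is a description only. Of 7771 genes, 15 (0.193%) were at least 2-fold higher and 3 (0.0386%) lower at day 9 than at day 7, and the median difference was 0.02. SPP1 differed by 0.64, RSPO2 by 0.56, VCAN by 0.44, SPARC by 0.33 and CLU by 0.16 on the log2 scale, and PAPPA by -0.16. COL1A1 was at 18.4 CPM at day 9 and 4.39 at day 7, SLC14A1, a urea transporter, at 17 and 5.49, INHBA at 15.4 and 4.94, and LY6D at 398 and 151. MMP7, at 27.5 and 7.68 CPM, rested in part on single cells. COL1A1, SLC14A1, INHBA and MMP7 passed the filter only through day 9 and so had to be higher then. At day 7 COL1A1 and INHBA rested on 16 and 18 UMIs in cluster 3. The early response genes FOSB and KLF4 were at 41.1 and 11.7 CPM at day 9 and 111 and 26.9 at day 7. LOC101672378 was at 4.7 and 24.1 CPM and passed the filter only through day 7, when a single cell held 55 of its 88 UMIs. KRT5 was at 767 CPM at day 9 and 1245 at day 7, a difference of -0.70.

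Over all days, 68 clusters of both genotypes had at least 50 cells, 39 of them WT. Summed over the 7 markers, CF cluster 11 came first with 22841 CPM and CF cluster 3 next with 19065, then CF cluster 23 with 13659, WT cluster 38 with 12274 and WT cluster 2 with 11290. CLU made up most of these sums, with 12996 CPM in CF cluster 3, 10828 in WT cluster 38 and 9422 in WT cluster 2. By the mean of log2 CPM plus 1 of the markers, CF clusters 11, 3 and 23 kept their ranks. CF cluster 27 then moved from rank 12 to rank 4. CF cluster 23 and WT cluster 38 had medians of only 3240 and 2726 UMIs in a cell. SPP1 was at 3863 CPM in CF cluster 3 and at most 633 in a WT cluster, and SPARC at 1962 and at most 912, both in WT cluster 2 with its 1051 cells. No WT cluster was above CF cluster 3 in SPP1, SPARC, VCAN, CTHRC1 or CLU, but 6 were in PAPPA, led by WT cluster 20 with 643 CPM. In RSPO2 only WT cluster 38, of 60 cells, was listed above it, with 19.5 CPM against 17.5, but this rested on 4 UMIs (5.31 to 49.9) and the order cannot be read.

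**Figure D5:**
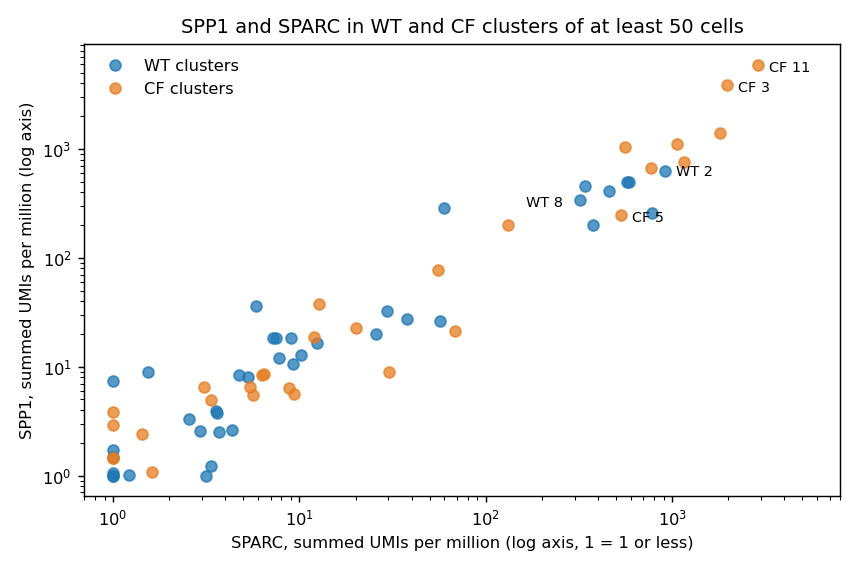
SPARC (horizontal) against SPP1 (vertical) in CPM on log axes, 1 standing for 1 or less, for the 39 WT (blue) and 29 CF (orange) clusters of at least 50 cells. CF clusters 11 and 3 lie at the upper right, above WT cluster 2 (633 CPM of SPP1, 912 of SPARC).

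Over whole libraries SPP1 was at 2.98, 41.7, 1082 and 1940 CPM in CF and at 2.41, 142, 83.5 and 170 in WT at days 2, 5, 7 and 9. SPARC was at 7.64, 95.5, 787 and 922 CPM in CF and 1.54, 159, 124 and 166 in WT. At day 5 both genes were higher in the WT library, and at days 7 and 9 in the CF library. VCAN was at 17.2 CPM in CF and 0.991 in WT at day 9 and CTHRC1 at 16.1 and 0.908, whereas PAPPA was at 70.2 and 87.7. With 1 library for each genotype and day these differences have no replicate check, and more SPP1-rich cells and more SPP1 RNA in each cell cannot be told apart at the level of a library.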

How the data were processed

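Ferret PDE cultures, WT and CF, gave 8 single-cell libraries, 1 for each genotype and day. The submitters' processing notes name Cell Ranger 5.0.1 (assembly ASM1176430v1.1), Seurat and R 4.1.2. Cells under 200 genes or above 20% mitochondrial reads had been dropped by the authors, doublets had been taken out with DoubletFinder, libraries had been merged uncorrected, and WT and CF cells had been clustered apart. No doublet caller was run again here. The matrices the authors deposited hold raw UMI counts of 27912 genes. Their deposited cell table gives counts of UMIs and genes per cell, the percent of mitochondrial UMIs, and cluster and class names. A deposited table gives the slingshot pseudotime score of each cell on each lineage. The log-normalized table was not used, and neither were the columns of cell cycle scores.

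The members, the gene lists and the comparisons were chosen with earlier results of these data known. UMIs were summed over cells within a library and scaled to CPM, with a pseudocount of 1 and a filter at a mean of 10 CPM of both arms. The nearest clusters were those with the highest Pearson correlation of log2 CPM plus 1. The text names the 7 markers, the 15 genes furthest apart in each direction at day 9 with the same direction at day 7 (those with a symbol and a known role are described), up to 6 members of a list, the 5 furthest genes in the comparisons with the nearest clusters and between days, PDX1, CFTR and SOX2, and the 3 genes most like SPP1 and RSPO2. Genes of the comparison with cluster 11, and those named for single cells, were chosen after their values were seen. So were the alternatives that use cluster 11 alone or leave out the cell of each library with the most THY1 UMIs. The other alternatives were scaling, pseudocount, filter, thinning, equal weight for each cell and the choice of comparison cells. List members with no row under their symbol, such as KRT14, KRT17, MGP and ITGAV, were not analysed here, and a few other genes are not reported here. Intervals at 95% (Poisson, Clopper-Pearson, conditional binomial for ratios) cover counting error only. Python 3.11.15, numpy 2.4.6, pandas 2.3.3, scipy 1.17.1, matplotlib 3.10.9 and, for TMM factors only, edgeR 4.0.16 in R 4.3.3 were used. The calculation was tested on simulated counts for the day 9 comparison, with genes changed 4-fold. Of 100 raised and 100 lowered genes, 100 and 88 passed the filter and all of these were called, as were 0 of 7490 unchanged genes past it. The simulated sums were Poisson draws without spread between cells. They check the arithmetic and not how reliable the reported counts are.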

Additional observations from a re-analysis of the deposited data

Results flagged for a closer look

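Of the 7657 genes past the filter at both days, 1313 (17.1%) had opposite signs. Among the genes named in the text or the lists, 2 of these also had counting intervals of the ratio wholly above 1 on one day and wholly below 1 on the other, and the difference between the days was not tested, since each day is 1 library. COL1A1 differed by 0.59 on the log2 scale between CF cluster 3 and the other CF cells at day 9 (18.4 and 11.9 CPM) and by -2.01 at day 7 (4.39 and 20.6 CPM). DKK1 differed by -1.28 at day 9 (68.5 and 168 CPM) and by 0.70 at day 7 (108 and 65.9 CPM). At day 9 cluster 7 was at 333 CPM for DKK1, and the median over the clusters other than cluster 3 was 71.5. Cluster 7 held 473 cells at day 9 and 19 at day 7, and its part in the change of sign was not tested. In cluster 3 at day 7, 61 of the 394 DKK1 UMIs were in 1 cell. Without the cell with the most THY1 UMIs of each library the COL1A1 differences were 0.99 and -0.98.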

How the results depend on the processing

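Of 106 genes named in the text or the lists that were called at day 9, all had the same direction with equal weight for each cell, thinning or deeper cells and against the other centroacinar cells, and all but CSF2 (-1.21 to 0.19) without the 3 nearest clusters. Another scaling or pseudocount could hardly turn the direction of a 2-fold difference. Between 76 and 106 stayed at least 2-fold apart. Against cluster 11 alone, without the cell with the most THY1 UMIs, the sign was the other one for SPP1 (-0.53), SPARC (-0.35), CTHRC1 (-0.54), CLU (-0.14) and VIM (-0.81), among others. The day 9 differences of 6 markers stayed above 1 in all of these alternatives but the last, from 1.18 (CLU) to 4.53 (CTHRC1), whereas PAPPA ranged from 0.28 to 2.49. The count of genes higher at day 9 (372) was 179 with TMM, 183 with median-of-ratios scaling, 162 with equal weight for each cell, 570 with a filter at 2 CPM, 617 with no filter, 160 against the other centroacinar cells and 893 without the 3 nearest clusters. The count lower at day 9 (399) was 630 and 761 with these filters. Higher at day 7 (184) became 119 with a pseudocount of 5, 315 after thinning, 311 and 345 with the filters, 33 against centroacinar cells and 599 without the nearest clusters, and lower at day 7 (340) became 550 after thinning, 616 and 796, 91 and 550. Between days within the cluster, higher at day 9 (15) became 6 with a pseudocount of 5, 191 after thinning, which leaves fewer UMIs by construction, and 55 and 106 with the filters, and lower (3) became 189, 20 and 29. Shares among cells of at least 3000 UMIs were 11.3% and 23%. Against cluster 11 alone the counts were 64 higher and 93 lower at day 9 and 75 and 94 at day 7, and without the cell with the most THY1 UMIs 65 and 81, and 73 and 80. Other causes of these moves were not tested. Depth limits RSPO2, which rests on 195 UMIs in cluster 3 at day 9 and 47 at day 7. No paired analysis was possible because the labels give no replicate numbers that groups share, each comparison lies within 1 library or between 2, and no result comes from a test.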

Other observations

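On the authors' slingshot trajectories, lineage 4 scored all 521 cluster 3 cells of day 9, with a median pseudotime of 39.7 (30.3 to 50.7 of a maximum of 166), and all 135 cells of day 7, with a median of 39.3 (31.1 to 47.6). Of the other CF cells it scored 23.1% and 32.2%. Lineage 12 scored 29.6% of cluster 3 cells at day 9 and 31.9% at day 7, and 0.915% and 3.6% of the other cells. Lineages 1, 2, 3, 7, 8, 10, 11 and 13 scored no cell of cluster 3. The trajectories were built on the same expression data as the clusters.

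Across 15 CF clusters of days 7 and 9, which share their libraries, the genes whose levels followed SPP1 most closely were SRGN, a secretory granule proteoglycan (Pearson correlation 0.969), FSTL1, a secreted follistatin-like glycoprotein (0.954), and LOC101679442 (0.954). Those that followed RSPO2 were IGFBP2 (0.944), TMEM86A (0.934) and SIAH1, a ubiquitin ligase (0.928).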
